A study of Mus musculus with 7 samples.

Results

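Cell cycle and proliferation genes were followed in mouse plantaris, a hindlimb muscle, through a list of 32 gene symbols. Members were all probes that the platform annotation assigns to a single symbol of that list, which gave 44 of 16273 probes and 30 of the 32 symbols (10697 symbols have a probe of their own). Ccnb1 and Plk1 matched no probe. Each of 7 arrays with 2 dyes set RNA pooled from 3 to 5 mice that ran, in Cy5, against a pool of 8 untrained mice, in Cy3. The running pools were R3h, taken at once after 3 h of running, R12h, taken at once after 12 h, P3h, P6h, P12h and P24h, taken 3, 6, 12 and 24 h after a 12 h run, and R4w, taken after 4 weeks of running. The labels name no strain, sex or age. Each pool was hybridised once, so a value has no replicate within its condition, and the untrained pool is shared by all 7 arrays. No array had the dyes swapped, so any dye effect on a probe is part of its ratios. In pooled muscle RNA, fewer cells of a type and less RNA per cell cannot be told apart.

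Values are log2 ratios, and a ratio listed at 0 (1e-12 or less in size) was taken as not measured; an array missing from a probe's values below is one where that probe was at 0. Which dye was divided by which is not stated. The running pool was labelled red and ratios are usually given as red over green, so above 0 likely stands for more RNA after running. Every direction below rests on this, and all would turn if the ratio ran the other way. Of the 44 probes, 22 were measured on all 7 arrays, 9 on 6, 6 on 5 and 4 on fewer. The remaining 3 probes, those named Mcm7 and Cdkn3 and probe 16813 of Aurka, were at 0 on all 7 arrays. Members at 0 made up from 6.82% (P12h) to 45.5% (P6h) of the 44, against 16.1% (P3h) to 41.7% (P6h) of all probes.

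A dividing cell passes from G1, where D and E cyclins start the cycle, through S phase, where the MCM helicase opens DNA and PCNA holds the polymerases on it, to G2 and mitosis, which cyclin A, cyclin B and Cdk1 drive and the anaphase-promoting complex ends. Muscle fibres have left the cycle for good, and p21 (Cdkn1a), an inhibitor of cyclin-dependent kinases, is among the proteins that hold differentiating muscle cells out of it. Division in muscle is a matter of satellite cells and of the endothelial, immune and connective tissue cells between the fibres. The title of the study's paper speaks of increased cell proliferation after a single bout of running, which sets the question for these probes; no value of that paper was used.

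Genes of this list are known to share promoter elements, and 4 promoters are shown to set these elements beside the ratios of the genes. RefSeq sequence (GRCm38.p6) for the 250 bases before the first listed start was matched for 25 of the 30 genes and for 27025 genes in all. CCAAT, the CCAAT box, was searched on both strands and stood in 20 of 25 member promoters (80.0%) and in 34.5% of all. TTTGAA, the letters of the cell cycle homology region (CHR) of mitotic genes, stood in 10 (40.0%) and in 16.3% of all, and both stood in the same 10 (40.0%) against 5.73%. TTTNNCGC, an E2F-like site of S phase genes, stood in 4 of the 25 and in 4.39% of all. These are letter matches, not sites shown to be bound. Cdk1, the mitotic kinase, held all 3 elements, and Cdc20, an activator of the anaphase-promoting complex, held CCAAT and TTTGAA. Mcm6, a helicase subunit, held CCAAT and TTTNNCGC, with 2 of its 3 TTTNNCGC matches overlapping on opposite strands. Cdkn1a held none in its window. Only the first listed start of each gene was searched, so any other promoter of a gene, that of Cdkn1a included, was not looked at. The windows are chr10:69352913-69353162 (minus strand) for Cdk1, chr4:118437344-118437593 (minus) for Cdc20, chr1:128359706-128359955 (minus) for Mcm6 and chr17:29090729-29090978 (plus) for Cdkn1a, with the matches in capitals (on the other strand CCAAT reads ATTGG).
Cdk1: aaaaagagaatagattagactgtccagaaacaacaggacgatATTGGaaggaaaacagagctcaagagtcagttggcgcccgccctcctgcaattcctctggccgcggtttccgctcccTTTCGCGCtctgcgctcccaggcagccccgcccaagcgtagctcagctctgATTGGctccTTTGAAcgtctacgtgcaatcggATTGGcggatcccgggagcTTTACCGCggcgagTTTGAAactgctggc
Cdc20: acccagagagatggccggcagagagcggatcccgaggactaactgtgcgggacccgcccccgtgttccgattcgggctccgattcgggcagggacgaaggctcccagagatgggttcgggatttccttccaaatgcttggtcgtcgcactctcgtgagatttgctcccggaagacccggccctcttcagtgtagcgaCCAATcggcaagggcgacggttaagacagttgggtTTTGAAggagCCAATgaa
Mcm6: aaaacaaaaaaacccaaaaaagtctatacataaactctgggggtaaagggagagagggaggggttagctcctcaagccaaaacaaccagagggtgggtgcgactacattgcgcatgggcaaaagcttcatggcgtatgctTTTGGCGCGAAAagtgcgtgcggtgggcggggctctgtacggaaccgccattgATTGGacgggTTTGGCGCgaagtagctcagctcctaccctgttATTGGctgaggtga
Cdkn1a: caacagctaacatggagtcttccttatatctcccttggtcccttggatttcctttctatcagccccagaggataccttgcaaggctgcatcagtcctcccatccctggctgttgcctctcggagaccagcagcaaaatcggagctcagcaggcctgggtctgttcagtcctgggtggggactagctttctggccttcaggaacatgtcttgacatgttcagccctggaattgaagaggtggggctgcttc

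Ratios were set beside these elements. A gene's single-run mean here is the average of the single-run means of its probes. Of the 10 genes with both CCAAT and TTTGAA, 9 had a measured probe, and 8 of the 9 had a mean below 0. Those means lay between -0.35 (Kif11, from 1 array) and 0.18 (Mcm2), with a median of -0.08. The 14 measured genes without both elements had 7 means above and 7 below 0, a median of -0.00 and a range from -0.66 (Cdkn1a) to 0.25 (Rrm2). Of the 4 genes with TTTNNCGC, 3 were measured, 1 with a mean above and 2 below 0 (median -0.06). Of all single probes measured on all 7 arrays, 49.4% had a single-run mean above 0. These counts describe the genes and carry no test.

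Whether probes of one symbol gave the same ratio was examined first, since each name rests on the annotation. Of the 30 genes, 17 had 1 probe, 12 had 2 and Cdkn1a had 3, which makes 15 pairs. For 12 pairs from 10 genes both probes were measured together on at least 5 arrays. Both probes had the same sign in 39 of 73 such pairings on an array (53.4%). Over all 2079 pairs of one symbol on the array (symbols on 2 to 4 probes) it was 50.9%, and over the 358 pairs that also share an accession 49.3%. On each array between 47.0% (P12h) and 51.0% (P24h) of all probes were above 0. Probes paired regardless of symbol would thus share a sign about as often. The median over pairs of the mean distance between 2 probes was 0.34 for members and 0.32 for all pairs of one symbol. Whether the probe numbers of the annotation are those of the value table could not be checked by sequence, and these pairs do not show that they are. Each gene name below, in the promoter comparison above and in the marker lists, is therefore the annotation's label of a probe, and a gene's role is background on that name.

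Of the pairs on 1 accession, Mcm3, a helicase subunit, had the largest mean distance, at 0.83, while the pairs of Cdkn1a probe 3548 with its other probes reached 1.12 and 1.36. Probe 5976 gave 0.27 (R3h) and 1.01 (R12h) at the end of running, and 0.94 (P3h), 0.83 (P6h), 0.22 (P12h) and -0.00 (P24h) in recovery. Probe 7959 gave -0.33 (R3h) and -0.45 (R12h) at the end of running, -0.31 (P3h), -0.43 (P12h) and -0.22 (P24h) in recovery, and -0.22 (R4w) with training. One probe was thus highest from the end of the run to 6 h later, while the other was below 0 wherever it was measured. Signs were the same on 1 of the 5 arrays that measured both, P24h, where the first probe was almost at 0.

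The probes of Cdk1 shared their sign on every array. Probe 2855 gave -0.83 (R3h) and -0.37 (R12h) at the end of running, 0.14 (P3h), -0.42 (P6h), 0.02 (P12h) and -0.13 (P24h) in recovery, and -0.15 (R4w) with training. Its partner 12673 gave -0.31 (R3h) and -0.29 (R12h) at the end of running, 0.07 (P3h), -0.72 (P6h), 0.49 (P12h) and -0.27 (P24h) in recovery, and -0.21 (R4w) with training. Both were below 0 on 5 arrays and above 0 on P3h and P12h. Of the 12 pairs, 2 had one sign on every array, this one and the pair of probes 3548 and 4387 of Cdkn1a. Among all 2079 pairs of one symbol 107 did so, and among the 358 pairs of one accession 15 did. Cyclin E1 (Ccne1), which starts S phase, had the same sign on 5 of 6 arrays. Cyclin A2 (Ccna2), which acts in S phase and G2, had it on 1 of 6, cyclin B2 (Ccnb2) on 2 of 7, and cyclin D1 (Ccnd1), a G1 cyclin with both probes on 1 accession, on 1 of 5. Survivin (Birc5) had it on 2 of 5, the checkpoint kinase Bub1 on 3 of 6 and Cdc20 on 4 of 7.

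**Figure D1:**
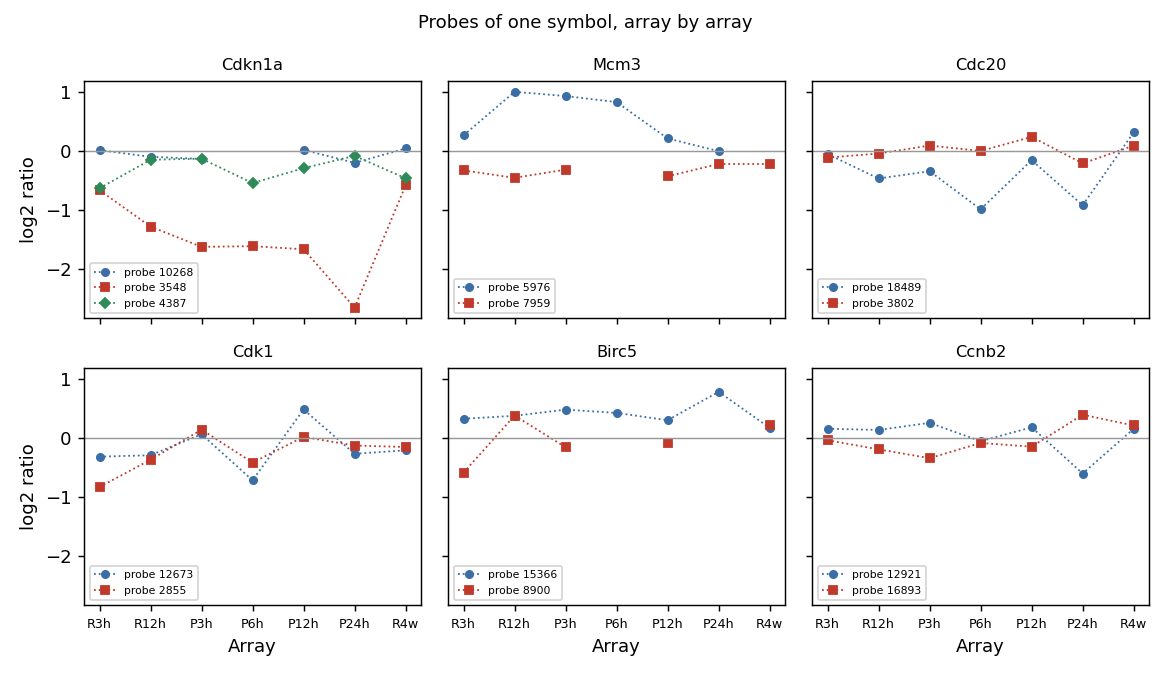
Log2 ratio on each of the 7 arrays (x axis) for the probes of 6 symbols; each point is 1 array, dotted lines join neighbouring arrays for the eye, and gaps are ratios listed at 0. The Mcm3 probes lie on opposite sides of 0 on R12h, at 1.01 and -0.45, while the Cdk1 probes share their sign on all 7 arrays.

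On each array the members lay close around 0. The medians of the members ran from -0.11 (R12h) to 0.01 (P12h), beside medians of all measured probes from -0.02 (R12h) to 0.01 (P24h). Members above 0 numbered 22 of 41 on P12h and 20 of 40 on P3h. At the end of running they were 16 of 39 (R3h) and 15 of 38 (R12h), and 9 of 24 (P6h), 11 of 31 (P24h) and 15 of 36 (R4w) elsewhere, so that most measured members were below 0 on these 5 arrays. Between 47.0% (P12h) and 51.0% (P24h) of all probes were above 0.

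Ratios of at least 1 in size were few. None of 39 members reached it on R3h and none of 36 on R4w, where 3.25% and 1.10% of all probes did. R12h had 2 of 38 (3.03% of all probes). Recovery had 1 member on each array, of 40 on P3h (2.38%), of 24 on P6h (3.69%), of 41 on P12h (1.85%) and of 31 on P24h (4.71%). Probe 3548 of Cdkn1a accounted for all of these but 1, which was probe 5976 of Mcm3 on R12h. In all, 24 of the 41 measured members stayed under 0.5 in size on every array that measured them. The share of all probes that did so was not counted, and a probe measured on few arrays meets this more easily. The count is therefore not read as a trait of the members. These are single arrays, so the counts have no test.

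**Figure D2:**
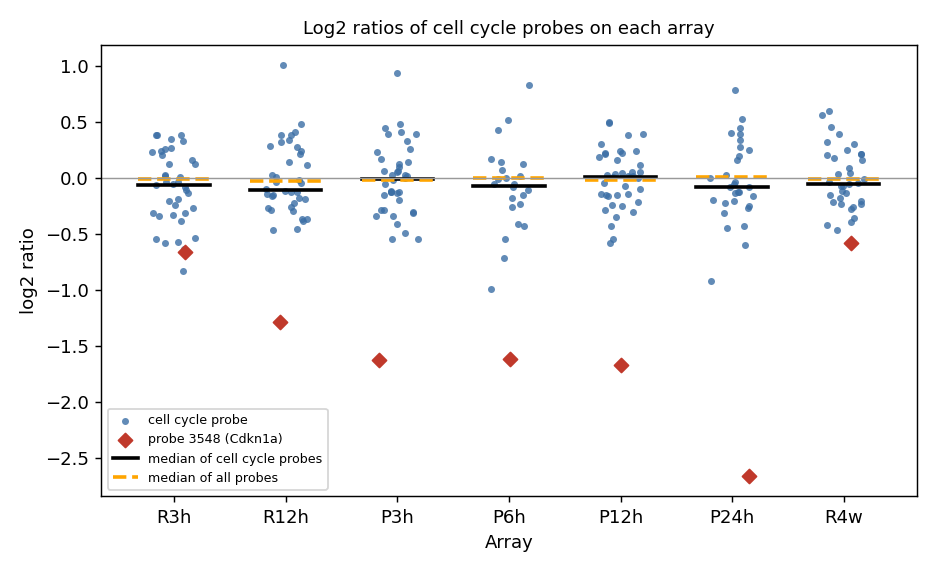
Log2 ratio (y axis) of every measured cell cycle probe on each array (x axis), with sideways scatter for legibility only; bars are the median of these probes and of all probes. The medians stay between -0.11 and 0.01, and probe 3548 (Cdkn1a) stands below all others from R12h to P24h.

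The inhibitors were led by Cdkn1a, the p21 gene. Its probe 3548 gave -0.66 (R3h) and -1.28 (R12h) at the end of running, -1.63 (P3h), -1.62 (P6h), -1.67 (P12h) and -2.66 (P24h) in recovery, and -0.58 (R4w) with training. It was below 0 on all 7 arrays, nearest to 0 after 3 h of running and after 4 weeks, and farthest from it 24 h after the run. The mean over the 6 single-run arrays was -1.59 ± 0.65 (SD, n = 6 arrays, limma adjusted p = 0.00104). Probe 4387 was also below 0 on all 7 arrays but nearer to it, with -0.63 (R3h) and -0.15 (R12h) at the end of running, -0.13 (P3h), -0.54 (P6h), -0.29 (P12h) and -0.08 (P24h) in recovery, and -0.46 (R4w) with training. Its mean was -0.30 ± 0.23 (SD, n = 6 arrays, limma adjusted p = 0.0303), a call that was lost without R3h, R12h, P6h or P12h (adjusted p from 0.0513 to 0.0897). Probe 10268 stayed near 0, with 0.02 (R3h) and -0.10 (R12h) at the end of running, -0.13 (P3h), 0.02 (P12h) and -0.20 (P24h) in recovery, and 0.04 (R4w) with training. The first probe thus stood apart from the other two, and probe 4387 was nearest to 0 on P24h, where probe 3548 was lowest. With its probes averaged on each array, Cdkn1a was at -0.71 (limma adjusted p = 0.00142), and probe 3548 kept its call under every alternative tried. The average of the means of its probes, used beside the promoters, was -0.66, since probe 10268 was at 0 on P6h. Cdkn3, a phosphatase that acts on cyclin-dependent kinases, had no measured value.

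Of the G1 cyclins, no probe passed the test. Probe 12187 of Ccnd1 gave -0.06 (R3h) and -0.15 (R12h) at the end of running, -0.29 (P3h), -0.11 (P6h), -0.14 (P12h) and -0.08 (P24h) in recovery, and -0.01 (R4w) with training. It was below 0 on all 7 arrays, with a mean of -0.14 ± 0.08 (SD, n = 6 arrays, limma adjusted p = 0.108). Probe 12888, of the same accession, was above 0 on 4 of the 5 arrays that measured it, with 0.20 (R3h) and 0.24 (R12h) at the end of running, -0.05 (P3h) and 0.01 (P12h) in recovery, and 0.21 (R4w) with training. The Ccne1 probe 215 gave -0.19 (R3h) and -0.23 (R12h) at the end of running, 0.17 (P3h), -0.26 (P6h), 0.05 (P12h) and -0.04 (P24h) in recovery, and -0.24 (R4w) with training. Its partner 13774 gave -0.13 (R3h) and -0.30 (R12h) at the end of running, -0.31 (P3h), 0.02 (P12h) and -0.25 (P24h) in recovery, and -0.42 (R4w) with training, and both were below 0 on most arrays. Together the 4 probes were above 0 in 7 of 25 measured values.

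The DNA replication probes went both ways. Mcm4, a helicase subunit, gave -0.34 (R3h) and -0.39 (R12h) at the end of running, -0.54 (P3h), -0.43 (P6h), -0.55 (P12h) and -0.43 (P24h) in recovery, and 0.03 (R4w) with training. All single-run arrays were below 0 within a narrow band, and R4w was apart from them. The mean was -0.45 ± 0.08 (SD, n = 6 arrays, limma adjusted p = 0.00125), and it was called under every alternative tried. Mcm6 was above 0 early and below late, with 0.39 (R3h) and 0.48 (R12h) at the end of running, 0.45 (P3h), 0.13 (P6h), -0.25 (P12h) and -0.14 (P24h) in recovery, and -0.03 (R4w) with training. Mcm2 was above 0 on 5 of 7 arrays, between -0.23 (P6h) and 0.50 (P12h), and Mcm5 on 3 of 7, between -0.39 (R4w) and 0.34 (P24h). The highest and lowest arrays thus differed between subunits of this one complex, a difference that was not tested. Pcna, the sliding clamp, was above 0 on the 5 single-run arrays that measured it (mean 0.18 ± 0.09, SD) and at -0.07 on R4w. Of the 46 measured replication values, 23 were above 0.

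Among the enzymes that supply nucleotides, Rrm2, the regulated subunit of ribonucleotide reductase, passed the test. It gave 0.35 (R3h) and 0.29 (R12h) at the end of running, 0.24 (P3h), -0.01 (P6h), 0.16 (P12h) and 0.44 (P24h) in recovery, and 0.30 (R4w) with training, above 0 on all arrays but P6h. Its mean of 0.25 ± 0.16 (SD, n = 6 arrays, limma adjusted p = 0.0312) was no longer called without R3h, R12h, P3h or P12h (adjusted p from 0.0613 to 0.0863). Rrm1, the other subunit, had a mean of 0.00 ± 0.23 (SD, n = 6 arrays) and was above 0 on 2 of 7 arrays. Thymidine kinase (Tk1) was at -0.57 on R3h and between 0.00 and 0.57 on the other 5 arrays that measured it. Thymidylate synthase (Tyms) had a probe, 14613, below 0 on all 5 arrays that measured it, with -0.08 (R3h) and -0.03 (R12h) at the end of running, -0.11 (P3h) and -0.22 (P12h) in recovery, and -0.05 (R4w) with training. Its other probe, 257, gave -0.53 (R3h) at the end of running, 0.41 (P3h) and 0.40 (P12h) in recovery, and -0.23 (R4w) with training, and the pair shared a sign on 2 of 4 arrays.

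In the G2 and mitosis group, Birc5 and Cdc20 passed the test in opposite directions. Birc5 encodes survivin, a subunit of the chromosomal passenger complex, and its probe 15366 gave 0.33 (R3h) and 0.38 (R12h) at the end of running, 0.48 (P3h), 0.43 (P6h), 0.30 (P12h) and 0.79 (P24h) in recovery, and 0.18 (R4w) with training. It was above 0 on all 7 arrays and highest on P24h. Of the 22 members measured on all arrays, 1 was above 0 on all of them and 3 (probes 3548 and 4387 of Cdkn1a, and 12187 of Ccnd1) were below, while 24.5% of all such probes kept one sign. The mean was 0.45 ± 0.18 (SD, n = 6 arrays, limma adjusted p = 0.00302). Probe 8900 of Birc5 gave -0.58 (R3h) and 0.38 (R12h) at the end of running, -0.15 (P3h) and -0.08 (P12h) in recovery, and 0.22 (R4w) with training. The probes met on R12h and lay on opposite sides of 0 on R3h. With both averaged on each array the gene was not called (0.29, limma adjusted p = 0.0715).

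Probe 18489 of Cdc20 gave -0.05 (R3h) and -0.47 (R12h) at the end of running, -0.34 (P3h), -0.99 (P6h), -0.15 (P12h) and -0.92 (P24h) in recovery, and 0.32 (R4w) with training. It was lowest on P6h and P24h and above 0 on R4w alone. Its mean was -0.49 ± 0.39 (SD, n = 6 arrays, limma adjusted p = 0.0215), and the call was lost without R12h (adjusted p = 0.0557) or P6h (0.0630). Probe 3802 of Cdc20 stayed nearer to 0, with -0.11 (R3h) and -0.04 (R12h) at the end of running, 0.09 (P3h), 0.00 (P6h), 0.24 (P12h) and -0.21 (P24h) in recovery, and 0.09 (R4w) with training, and had a mean of -0.00. With both probes averaged the gene was at -0.25 (adjusted p = 0.0677).

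No other probe of the mitotic group measured on all arrays was called. Ccna2 probe 10715 was above 0 on 6 of 7 arrays and highest with training, at 0.02 (R3h) and 0.28 (R12h) at the end of running, 0.05 (P3h), 0.15 (P6h), -0.10 (P12h) and 0.28 (P24h) in recovery, and 0.59 (R4w) with training. Its partner 17251 gave -0.04 (R3h) and -0.13 (R12h) at the end of running, -0.19 (P3h), 0.04 (P12h) and 0.16 (P24h) in recovery, and -0.05 (R4w) with training. For Ccnb2, probe 12921 gave 0.16 (R3h) and 0.14 (R12h) at the end of running, 0.26 (P3h), -0.05 (P6h), 0.18 (P12h) and -0.60 (P24h) in recovery, and 0.16 (R4w) with training. Probe 16893 of Ccnb2 gave -0.04 (R3h) and -0.19 (R12h) at the end of running, -0.34 (P3h), -0.08 (P6h), -0.14 (P12h) and 0.40 (P24h) in recovery, and 0.22 (R4w) with training, so that the pair parted most on P24h. Their single-run means were 0.02 and -0.07.

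Bub1 probe 14151 gave 0.23 (R3h) and 0.03 (R12h) at the end of running, -0.41 (P3h), -0.17 (P6h), -0.15 (P12h) and 0.39 (P24h) in recovery, and 0.45 (R4w) with training. Probe 16927 of Bub1 gave 0.12 (R3h) and -0.17 (R12h) at the end of running, -0.29 (P3h), -0.31 (P12h) and -0.31 (P24h) in recovery, and -0.13 (R4w) with training, and the pair again lay on opposite sides of 0 on P24h and R4w. Aurka, a spindle pole kinase, gave 0.26 (R3h) and -0.36 (R12h) at the end of running, -0.49 (P3h), 0.07 (P6h), 0.22 (P12h) and -0.05 (P24h) in recovery, and -0.07 (R4w) with training on the probe that was measured. It changed sign 3 times over the single-run arrays in time order. Aurkb, the kinase of the passenger complex, was above 0 on the 5 arrays that measured probe 12572, with 0.39 (R3h) and 0.00 (R12h) at the end of running, 0.02 (P3h) and 0.22 (P12h) in recovery, and 0.25 (R4w) with training. Its probe 13693, of the same accession, gave 0.33 (R12h) at the end of running, and 0.06 (P3h) and -0.00 (P12h) in recovery.

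Ube2c, the ubiquitin-conjugating enzyme of the anaphase-promoting complex, lay between -0.44 (P24h) and 0.40 (P3h). Top2a, which untangles chromosomes, was at -0.55 on R3h and between -0.26 and 0.02 elsewhere. Prc1, which bundles the central spindle, was below 0 on all 5 of its arrays, with -0.21 (R3h) and -0.26 (R12h) at the end of running, -0.54 (P3h) and -0.58 (P12h) in recovery, and -0.18 (R4w) with training. Kif11, a spindle motor, was measured on P12h alone (-0.35). Over the group 53 of 114 measured values were above 0.

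Mki67, the proliferation marker Ki-67, gave 0.24 (R3h) and -0.17 (R12h) at the end of running, -0.12 (P3h), -0.06 (P6h), 0.05 (P12h) and 0.03 (P24h) in recovery, and -0.12 (R4w) with training. Its mean of -0.01 ± 0.15 (SD, n = 6 arrays, limma adjusted p = 0.960) was among the smallest of the members. Stmn1, a microtubule regulator high in dividing cells, went from -0.13 on P3h to 0.24 on P12h and 0.53 on P24h and was at 0 on P6h and R4w. Hmgb2, a chromatin protein of cycling cells, was measured on 3 arrays, between -0.27 and 0.04.

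**Figure D3:**
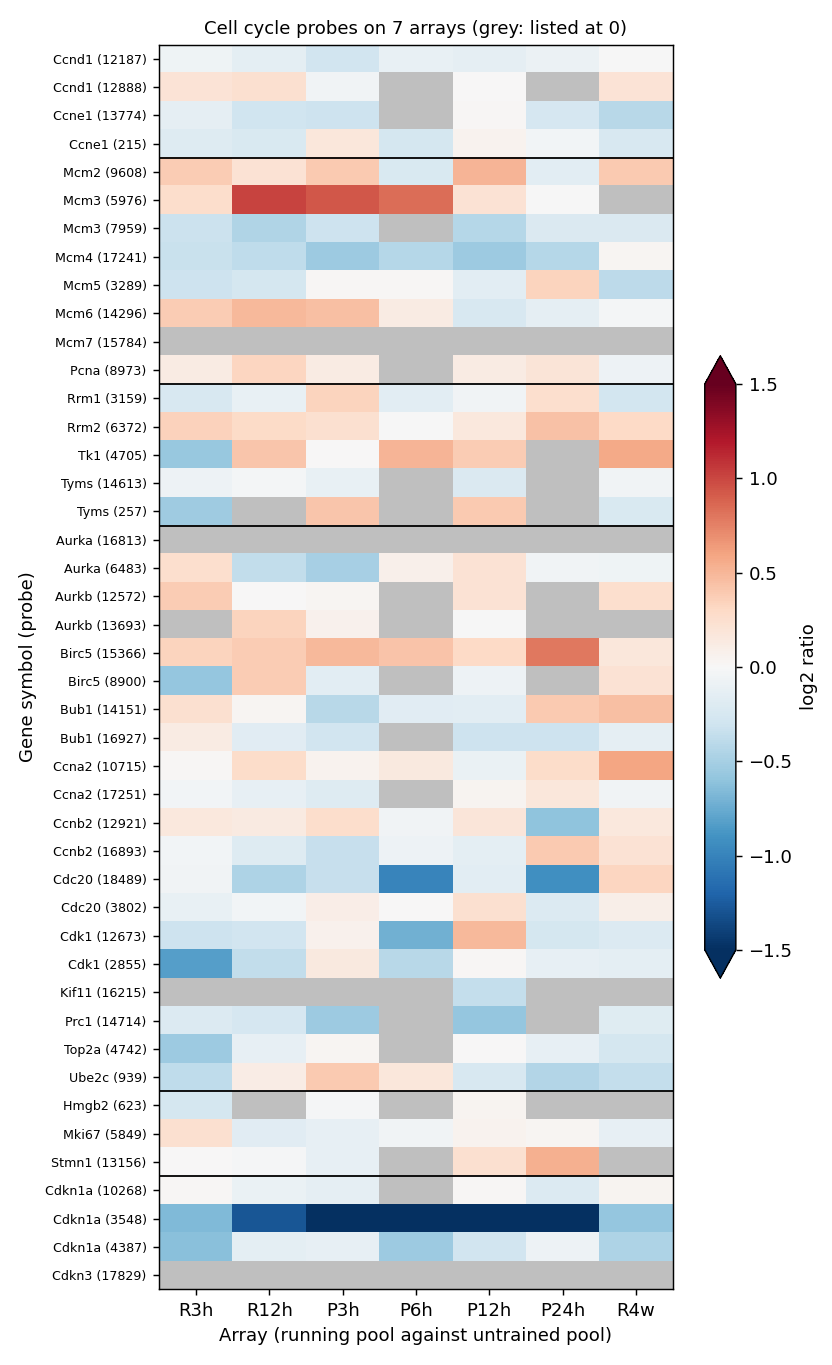
Log2 ratios of the 44 probes (rows, grouped by role) on the 7 arrays (columns); red is above 0, blue below 0, grey a ratio listed at 0, and colours saturate at the ends of the bar. Probe 3548 (Cdkn1a) is the darkest row, at -2.66 on P24h, and most other rows change sign between arrays.

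The first test asked which of the probes measured on all 7 arrays had a mean over the single-run arrays that differed from the control pool. Of 22 members, 6 were called (limma, adjusted p under 0.05), against 30.4% of all 9023 probes tested, a share close to that of the members. Birc5 and Rrm2 were above 0 (16.2% of all probes were called above 0), and Mcm4, probe 18489 of Cdc20 and the 2 Cdkn1a probes were below (14.2%). The median mean was -0.06 for members and -0.00 for all, and the members' median size of 0.13 was not above the 0.16 of all probes. Without R12h, 3 members were called in place of 6, and 20.2% of all probes in place of 30.4%. The single-run arrays are different times, so their spread holds the time course, and the spread of the control pool is not in the test. Running pools were in Cy5 on every array, so a probe's dye effect cannot be told apart from running in this test.

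The filter on all 7 arrays left out 22 members, so the test was also run on probes measured on at least 5 arrays, which took in 37. Of these 9 were called, 3 above and 6 below 0, against 29.7% of 12434 probes, 14.3% above and 15.4% below. Besides the 6 already named these were both Mcm3 probes, at 0.54 ± 0.14 and -0.35 ± 0.07 (SE, limma adjusted p = 0.0222 and 0.00810), and Prc1 at -0.40 ± 0.10 (SE, adjusted p = 0.0233). Probes of 1 Mcm3 accession were thus called in opposite directions.

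**Figure D4:**
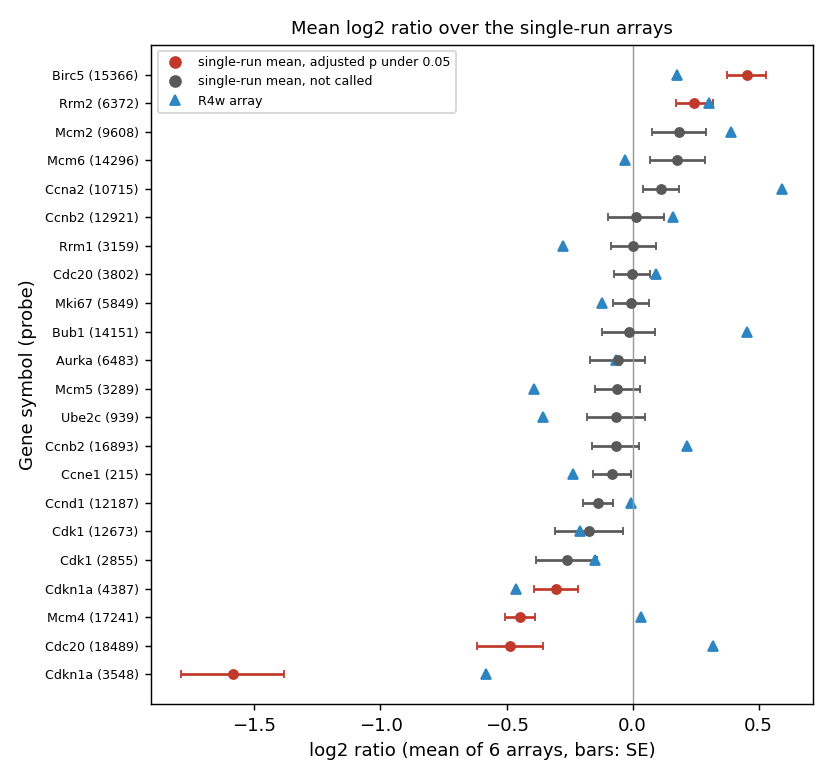
Mean log2 ratio over the 6 single-run arrays (circles, bars are the SE of the limma fit) and the R4w value (triangles) for the 22 cell cycle probes measured on all 7 arrays (y axis). The 6 called probes are red and run from -1.59 (Cdkn1a, probe 3548) to 0.45 (Birc5, probe 15366).

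The second test set the 4 arrays after the run against R3h and R12h, and the shared control pool cancels in it. R3h and R12h, taken at the end of running, are termed during the run here. R3h followed 3 h of running and all the other arrays in this test 12 h, so run length and rest are mixed in the difference. No member was called, and neither was any of the 9023 probes (0%, limma). At an unadjusted p under 0.05 there were 2 members and 868 of all probes (9.62%). Of the 22 members, 10 were higher after than during the run, as were 54.4% of all probes. The median difference was -0.03 beside 0.02 for all probes. Probe 3548 of Cdkn1a was lower after the run, with means of -0.97 during and -1.89 after, a difference of -0.92 ± 0.32 (SE, limma adjusted p = 0.423). Probe 2855 of Cdk1 was higher after it, with means of -0.60 and -0.09, a difference of 0.50 ± 0.20 (SE, adjusted p = 0.472). Its mean during the run was made of -0.83 on R3h and -0.37 on R12h. Mki67 was at 0.03 during and -0.03 after. Mcm5 differed by 0.34 ± 0.16 and Mcm6 by -0.39 ± 0.20 (SE, limma adjusted p = 0.549 and 0.598), in opposite directions, though neither was called. A missed threshold with 2 arrays against 4 does not show that values were equal.

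**Figure D5:**
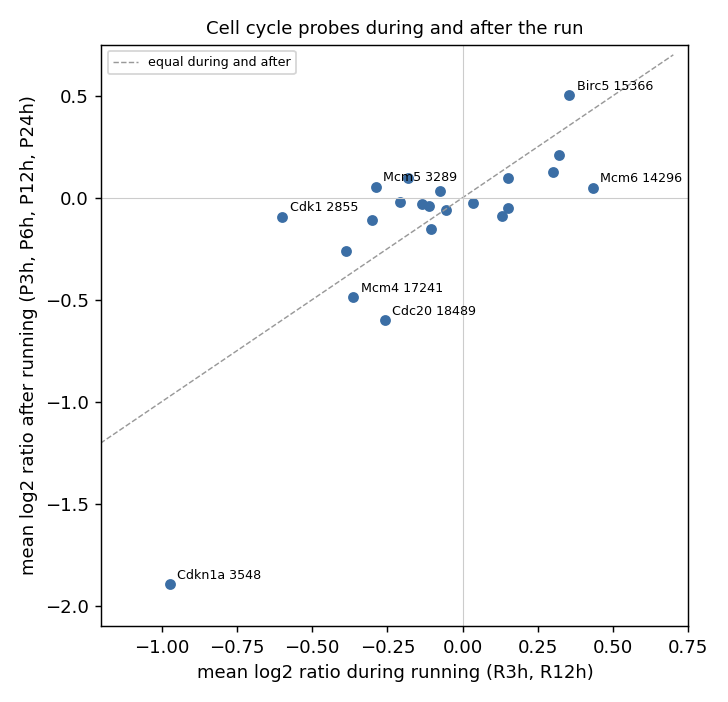
Mean log2 ratio on R3h and R12h (x axis) against the mean on P3h, P6h, P12h and P24h (y axis) for the 22 cell cycle probes measured on all 7 arrays; the dashed line marks equal means and each point is 1 probe. Of the probes 10 lie above the line, and probe 3548 (Cdkn1a) lies farthest from it, at -0.97 and -1.89.

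The third test followed recovery as a slope over R12h, P3h, P6h, P12h and P24h in sampling order. No member was called, against 1 of 9023 probes (0.0111%), and 3 members had an unadjusted p under 0.05 beside 1110 of all probes (12.3%). The Cdkn1a probe 3548 had a slope of -0.28 ± 0.08 per step and Mcm6 one of -0.19 ± 0.05 (SE, n = 5 arrays, limma adjusted p = 0.300 for both). Ube2c followed with -0.18 ± 0.06 (adjusted p = 0.353). The upward slope with the smallest p was that of Ccnb2 probe 16893, at 0.14 ± 0.06 (adjusted p = 0.416). Slopes of the members had a median of 0.02 beside 0.01 for all probes, and 12 of 22 were above 0 beside 53.4% of all.

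The last test set R4w against the single-run mean. No member was called, against 1 of 9023 probes (0.0111%), and 3 members had an unadjusted p under 0.05 beside 523 of all probes (5.80%). Those 3 were higher on R4w. Mcm4 was at 0.03 against a mean of -0.45 (difference 0.48 ± 0.16, SE, limma adjusted p = 0.830), and Cdc20 probe 18489 at 0.32 against -0.49 (0.81 ± 0.34, adjusted p = 0.833). Both were below 0 on all 6 single-run arrays and above it on R4w. Ccna2 probe 10715 was at 0.59 against 0.11 (0.48 ± 0.19, adjusted p = 0.830). The largest difference was that of Cdkn1a probe 3548, at -0.58 against -1.59 (adjusted p = 0.841). The spread of R4w, a single array, is assumed to equal that of the others.

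Other cell cycle genes were also called in both directions. Of 148 further symbols, 124 had 178 probes, of which 99 were tested. Over the single run 12 were called above and 20 below 0 (32.3%, against the 30.4% of all probes), with a median mean of -0.07. In the other 3 comparisons 0 were called (limma). The lowest mean was that of probe 15397 of Cdc6, which loads the MCM helicase, with -2.61 (R3h) and -2.58 (R12h) at the end of running, -0.62 (P3h), -2.83 (P6h), -1.89 (P12h) and -1.96 (P24h) in recovery, and -1.57 (R4w) with training (mean -2.08 ± 0.81, SD, n = 6 arrays, limma adjusted p = 0.000786). Cdc25c and Cdc25b, phosphatases that activate Cdk1, and Skp2, which targets p27 for destruction, had means of -1.39, -1.18 and -1.08. All 4 probes were nearest to 0 on P3h among the single-run arrays, at -0.62 to -0.71. The second probes of Cdc25b and Skp2 lay near 0 (-0.14, and -0.01 and 0.01 for the 2 of Skp2), and that of Cdc6 was at -0.27 over 3 arrays. The second probe of Cdc25c had no measured value. The E2f5 repressor (0.65), the Dbf4 activator of replication kinase (0.46), Foxm1, an activator of mitotic genes (-0.53), and the inhibitor Cdkn2d (-0.43) were also called. The other probes of Dbf4 and Cdkn2d had means smaller in size, at 0.13 and -0.15. Of 4 symbols with 2 called probes, 3 had them in opposite directions, among them condensin subunit Smc2 (0.64 and -0.24) and Cdk7 (0.42 and -0.20).

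Markers of cells that could divide or enter the muscle were set beside these values, and their part in the results was not tested. Of the satellite cell and myoblast markers, 8 had a probe, 5 were tested, and 0 were called above and 1, Myog, below 0 over the single run; Myod1 and Cd34 were at 0 on all 7 arrays and Pax7, the defining marker, lay between -0.21 and 0.30. The median of this list ran from -0.16 (P24h) to 0.10 (P6h). Leukocyte and macrophage probes had 1 call above and 2 below among 6 tested, with list medians from -0.19 (R12h) to 0.04 (R4w). The complement gene C1qa lay between -3.06 and -1.06 and, like the Cdc6, Cdc25c, Cdc25b and Skp2 probes above, was nearest to 0 on P3h among the single-run arrays. Probes of Ptprc, for CD45, differed. Probe 2799 was above 0 on all 7 arrays (0.13 to 0.38), while 5226 lay between -0.33 (R3h) and 0.19 (P6h). Probe 7610 lay between -0.19 (P6h) and 0.22 (P12h). The endothelial list had 1 call above among 4 tested and medians from -0.15 (R4w) to 0.35 (P24h), the fibroblast list 1 above and 1 below among 3 (medians -0.30 to 0.33), the adipocyte list 2 above among 2 (-0.02 to 0.50) and the erythroid list none among 3 (-0.71 to 0.22). Of the 16 skeletal muscle markers with a probe, those named Ckm and Pvalb were at 0 on all 7 arrays and 5 of 12 tested probes were called above 0, with list medians from -0.01 (P24h) to 0.18 (R12h). Mylpf, a fast myosin light chain, ranged widest, from 3.27 on R3h to -0.52 on R4w. Of all probes 16.2% were called above and 14.2% below 0, and these lists are too short to read against those shares. A ratio gives no level, so the labelled tissue could not be checked from these values.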

How the data were processed

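The authors deposited a log2 ratio for each probe on each array. Its log2 scale was read from the values, while scanner, background correction, normalization, centring and direction were not given in the labels. No intensities were used, so depth is unknown and precision is limited by how many arrays there are. Names are those of the platform annotation; updating them to current RefSeq symbols left the same 44 probes. Tests were run on single probes, since probes of one symbol disagreed; means over a symbol's probes were used only beside the promoters and as an alternative. The tests used limma 3.58.1 in R 4.3.3 (lmFit and eBayes, two-sided, Benjamini-Hochberg over all probes measured on all 7 arrays, threshold 0.05). The fits were also run on simulated ratios with independent noise on each array and no dye effect, time course or shared control pool. That run therefore says nothing on these features of the data. Values on all arrays are printed for members that were called, reached 1 in size or share a symbol with another probe, with Mcm6 and Mki67 added after their values were seen, and of the other cell cycle genes the 10 called probes of largest size are named. The members and lists were chosen with earlier results of these data known. Alternatives were other probe filters, zeros kept, centring, scaling, a robust variance, averaging over symbols, other time scales and reference arrays, and each array left out.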

Additional observations from a re-analysis of the deposited data

How the results depend on the processing

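No member was called in the after-run, recovery or R4w comparison under any alternative tried. Over the single run the member calls went from 6 to 3 when probes of a symbol were averaged (3 of 19, against 29.4% of all), and lay between 3 and 6 with each array left out, where all probes called lay between 1823 (without R12h) and 3304. The single-run values of the 6 called probes were recomputed 72 times in all, of which 57 kept the call, 15 lost it and 0 turned in direction. Leaving an array out could not turn any of these means. All of these probes but Rrm2 had one sign on every single-run array, and Rrm2 was below 0 on P6h alone, at -0.01. A robust variance, zeros kept and the filter on at least 5 arrays leave the mean of these probes as it was. The count of 0 turned was thus mostly fixed in advance. The averaged Cdkn1a value was counted for both its called probes. Probe 3548 was not called in the other 3 comparisons under any of 38 alternatives. With zeros kept, probe 4387 of Cdkn1a, Rrm2 and probe 18489 of Cdc20 lost their single-run calls (adjusted p 0.0875, 0.0583 and 0.0964).

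Among all probes, the after-run comparison called 1 with symbols averaged, 1 with at least 5 arrays and 40 with zeros kept. The recovery slope called 0 with at least 5 arrays, zeros kept, arrays centred, arrays scaled, and without each of the 5 arrays; with hours as the time scale it called 1 below 0, where the order of sampling called 1 above 0, and probe 3548 was at an adjusted p of 0.0939. The R4w comparison called 0 with symbols averaged, 2 with at least 5 arrays, 117 with zeros kept, 0 against P12h and P24h alone, and 1 without each single-run array; leaving out R4w leaves nothing to compare. The causes were not tested. At 0.5 in size in place of 1, members numbered 7 of 39 (R3h, 14.4% of all probes) and 2 of 38 (R12h, 16.2%). In recovery they were 4 of 40 (P3h, 13.5%), 6 of 24 (P6h, 17.3%), 4 of 41 (P12h, 9.41%) and 5 of 31 (P24h, 23.3%). With training they were 3 of 36 (R4w, 8.51%). At 1 in size, R12h had 1 member of 38 with arrays scaled and 1 of 22 among probes measured on all 7 arrays. No paired analysis was possible because each condition has 1 array.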
